A study of Mus musculus with 2 samples.

Results

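The genes described here encode the voltage-gated and related ion channels and the glutamate receptors that carry electrical signals in neurons. They were chosen by platform gene symbol: AMPA, kainate, delta and NMDA receptor subunits, metabotropic glutamate receptors, and the pore and auxiliary subunits of calcium, potassium and sodium channels, with the non-coding Kcnq1ot1 left out. By this rule 131 of 17097 named genes were members, read by 238 probe sets. Usable values existed for 129 members, and 2, Kcnh5 and Kcnn2, had none. A gene is represented by its brightest probe set, the usable one with the highest mean intensity over both arrays. The group was put together with the differences of some members, Grik1, Cacna1a and Kcnj16 among them, already known, so its values are a description and were not tested.

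Both samples were mouse embryonic stem (ES) cells grown without feeder cells on gelatin, with 15% serum and leukaemia inhibitory factor. One culture carried a retrovirus with a control hairpin, and the other a retrovirus with a hairpin against H2A.B, a short variant of histone H2A. Both hairpins were driven by the U6 promoter and both cultures were selected with G418 for 2 to 4 weeks before RNA extraction. With 1 Affymetrix array per group, replicate error could be given for none of the differences below. The labels name neither the ES cell line nor the number of cultures behind an array. The pair of arrays addresses how loss of H2A.B alters the RNA content of ES cells.

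Excitable cells fire when sodium channels open, repolarise through potassium channels, and turn the impulse into transmitter release through calcium channels. Glutamate then opens AMPA, kainate and NMDA receptors on the next cell, while metabotropic receptors act through G proteins. Most of these genes belong to neurons and muscle, and outside neurons many are held down by the repressor Rest, though potassium channels of the leak and inward rectifier families are used in many cell types.

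Values are log2 intensities from an RMA-normalised table, in which a difference of 1 is 2-fold. Over all 16563 genes measured, the median level was 6.76 for the control and 6.72 for the knockdown. ES cell markers were at 10.14 to 14.24 in control and 10.12 to 14.22 in knockdown cells over 9 measured genes, each within 0.5 of its value on the other array. Neuron markers ran from 2.93 to 10.93 and from 2.87 to 10.92 over 15 genes, of which 4 lay at or above the median level of all genes. On the brightest probe set 1 of the 15 (6.67%), Syt1, was 2-fold lower (-1.46), where 2.91% of all genes were. Rbfox3 (-0.84) and Slc32a1 (-0.72) were lower by less, and 12 were within 0.5. A dimmer Elavl4 probe set had 6.77 and 3.78 (-2.99), against -0.14 on the brightest. The only spread that can be had is technical: among probe sets of one gene the SD of the difference had a median of 0.06 over the 65 members with several usable probe sets. Between rows 18185 and 33642 of the deposited table, called its middle section, some control values repeat a value a few rows above and were left out. For 5 members, Grin3a, Kcnj16, Kcnq5, Kcnt1 and Scn9a, a value of the brightest probe set is one that recurs below it and was kept. Whether the table holds further wrong values was not tested. Genes read from the middle section were 2-fold apart either way in 8.65% of cases and those from the rows after it, the last section, in 7.99%, against 0.787% for the rows before it, the first section. The part of the table's section in the differences below was not tested.

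Most of these genes had low intensities, and most were alike on both arrays. The members' median was 5.19 on the control array, with a range from 2.66 to 9.90, and 5.12 on the knockdown array. Of the 129 members, 20 had a mean level at or above 6.73, the median over all genes, and 109 lay below it. Intensities of different probe sets do not give the order of their transcripts' amounts, and no detection calls were used here, so a low value does not say whether a gene was transcribed. The median difference, knockdown minus control, was -0.012 over members and -0.0056 over all genes. The absolute difference had a median of 0.07 in both. Within 0.1 lay 72 members (55.8%, against 57.8% of all genes), and within 0.5 lay 105 (81.4%, against 88.9%).

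After H2A.B knockdown 8 members (6.20%) had at least 2-fold lower values, where 2.91% of all genes did. They were Grik1, Scn8a, Kcnq1, Cacna1a, Cacng2, Scn3a, Cacna2d2 and Scn1a. At least 2-fold higher were 2 members (1.55%), Kcnj16 and Scn3b, where 1.13% of all genes were. For genes read from the first, middle and last section the share 2-fold lower was 0.692%, 6.09% and 5.58%, and 2.56% of those from the middle were 2-fold higher. The plot of both arrays' intensities shows these 10 beyond the 2-fold lines, with other members up to those lines: at a limit of 1.5-fold 15 members were lower and 6 higher, where 6.24% and 2.98% of all genes were. With 1 array per group the gap between 6.20% and 2.91% has no error to set it against. Of the 8 lower members, 3 were read from the first section, 1 from the middle and 4 from the last, and both higher ones were read from the middle. By class, 4 of 11 sodium channel genes were past 2-fold, 3 of 22 calcium channel genes, 1 of 22 glutamate receptor genes and 2 of 74 potassium channel genes, where 4.04% of all genes were past it either way.

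**Figure D1:**
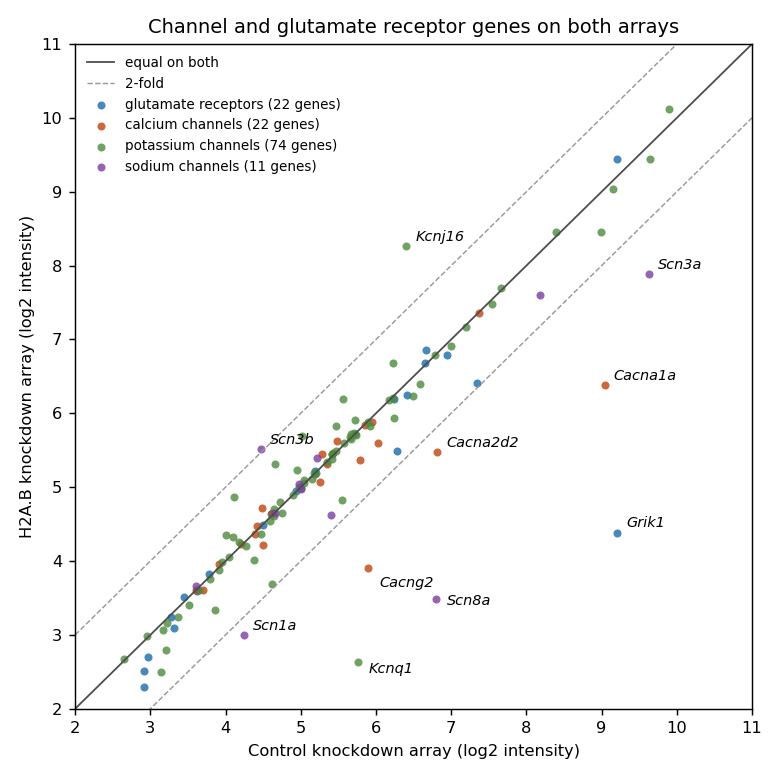
Each point is 1 gene on its brightest probe set, plotted by log2 intensity in control (horizontal) and H2A.B knockdown cells (vertical), coloured by class. The solid line marks equal values and the dashed lines 2-fold; 8 named genes lie below the lower dashed line and 2 above the upper one.

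Several of these genes were read by more than 1 probe set, and the probe sets of a gene did not always show a like difference. Of the 10 members past 2-fold, 9 had several usable probe sets, and in 4 of those every one was past 2-fold the same way: Cacna2d2, Cacng2 and Scn1a lower, and Scn3b higher. In the other 5 at least 1 probe set was not. Over all genes past 2-fold with several usable probe sets, every one was past 2-fold the same way in 188 of 317 (59.3%). Kcnq1 had a single probe set. Counted only where every usable probe set passed, 4 members (3.10%) were lower and 1 (0.775%) higher, where 2.25% and 1.01% of all genes were. Over the members' 100 dimmer probe sets, 88 were within 0.5, 2 were 2-fold higher and 5 were 2-fold lower. The share over the dimmer probe sets of all genes was not taken, so these counts say nothing particular to the members.

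**Figure D2:**
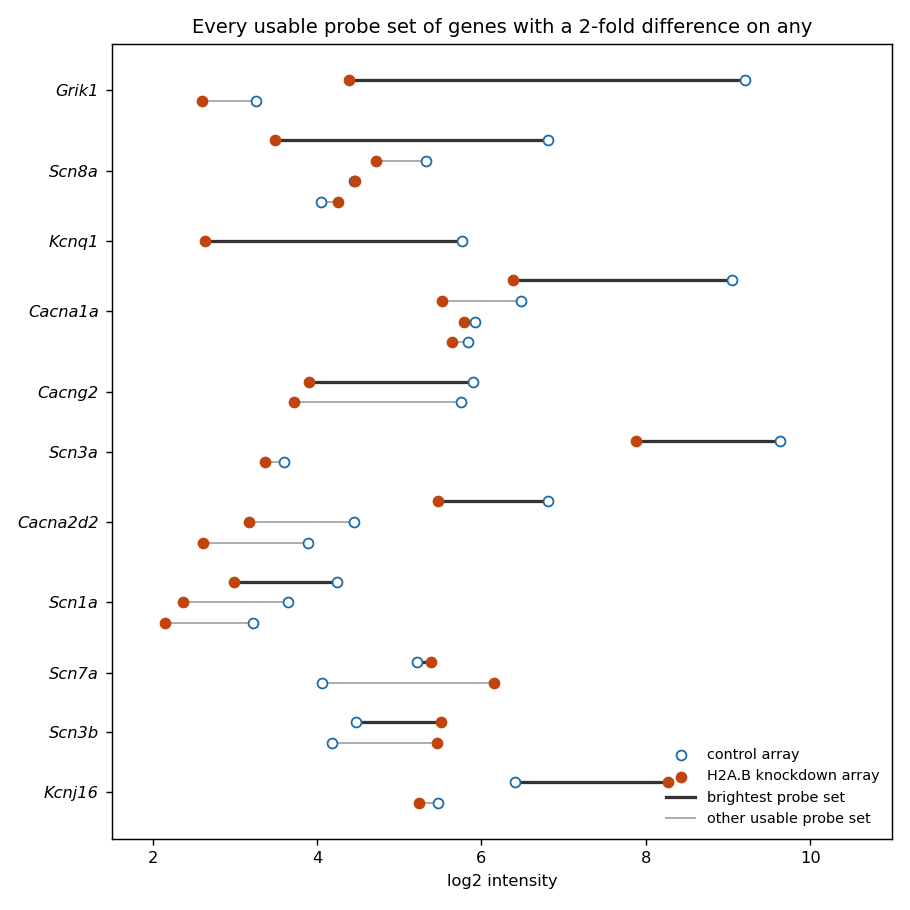
Every usable probe set of the 11 genes with a 2-fold difference on any of them, as a line from its log2 intensity on the control array (open circle) to that on the knockdown array (filled circle), with the brightest probe set in black. The lines of Cacng2, Cacna2d2, Scn1a and Scn3b have like lengths within each gene, while those of Grik1, Scn8a, Cacna1a, Scn3a, Scn7a and Kcnj16 do not.

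RefSeq upstream sequences are shown for Cacna2d2, Cacng2 and Scn1a, because these are the members whose lower values did not rest on 1 probe set. Each run is the 250 bases before an annotated gene start in GRCm38.p6, written 5′ to 3′ on the gene's strand with CpG dinucleotides in capitals: Cacna2d2 at chr9:107399630-107399879 on the plus strand, Cacng2 at chr15:78119281-78119530 on the minus strand and Scn1a at chr2:66440838-66441087 on the minus strand. The array table names no build.
Cacna2d2: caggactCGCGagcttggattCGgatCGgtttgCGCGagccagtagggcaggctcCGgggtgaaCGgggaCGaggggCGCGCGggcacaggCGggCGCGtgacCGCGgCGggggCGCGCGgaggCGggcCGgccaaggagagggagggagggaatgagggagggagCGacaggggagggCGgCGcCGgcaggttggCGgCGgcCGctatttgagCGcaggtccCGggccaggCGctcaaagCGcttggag
Cacng2: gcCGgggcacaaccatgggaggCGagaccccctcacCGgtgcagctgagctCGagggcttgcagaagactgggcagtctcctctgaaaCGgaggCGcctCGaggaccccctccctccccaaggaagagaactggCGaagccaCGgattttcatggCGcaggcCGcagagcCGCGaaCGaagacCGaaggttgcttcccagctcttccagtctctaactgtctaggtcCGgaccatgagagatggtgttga
Scn1a: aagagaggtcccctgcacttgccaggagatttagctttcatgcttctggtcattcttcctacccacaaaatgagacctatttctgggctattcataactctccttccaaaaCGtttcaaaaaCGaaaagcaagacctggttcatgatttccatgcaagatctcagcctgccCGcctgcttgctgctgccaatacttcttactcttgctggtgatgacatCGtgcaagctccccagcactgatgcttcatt
The Cacna2d2 run held 34 CpG dinucleotides and 74.4% G and C, the Cacng2 run 16 and 62.0%, and the Scn1a run 4 and 46.8%. Over 32851 upstream runs of the same length the median was 6, and at least as many as in Cacna2d2 were held by 3.53% of them, at least as many as in Cacng2 by 25.4% and at least as many as in Scn1a by 62.2%. So these 3 genes, each 2-fold lower on all of several probe sets, ran from CpG-rich to CpG-poor upstream of the annotated start. Start use in these cells was not measured.

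Among glutamate receptors, the 22 genes measured held 1 past 2-fold, Grik1, which encodes the kainate receptor subunit GluK1. Its brightest probe set had 9.21 in control and 4.39 in knockdown cells, a difference of -4.82 or 28.3-fold lower, the largest in either direction among all members. Its dimmer probe set had 3.26 and 2.60, a difference of -0.66, so the size rests on 1 probe set, and with suffixed probe sets left out the gene was no longer past 2-fold. The other kainate subunits were alike: Grik2 differed by -0.0037, Grik3 by 0.05 and Grik5, a high-affinity partner subunit, by -0.05, while Grik4 had 2.91 and 2.52 (-0.40). A brighter Grik3 probe set, with 8.61 in control and 8.94 in knockdown cells, was among the 9 left out because the control value repeats an earlier one.

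AMPA receptors carry most fast excitatory transmission, and their 4 subunit genes had no 2-fold difference, where 4.04% of all genes had one. Gria2, the subunit that makes the receptor impermeable to calcium, came closest with 7.34 and 6.41 (-0.93). Its other probe sets differed by -0.19 and -0.35. Gria1 had 2.92 and 2.29 on one probe set and 2.78 and 2.22 on the other, differences of -0.62 and -0.56 at very low intensities. Gria3 differed by 0.04 and Gria4 by 0.03, though the dimmer Gria4 probe sets were at -0.47 and -0.77.

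NMDA receptors are the coincidence detectors of synaptic plasticity, and all 6 of their genes were within 0.5, where 88.9% of all genes were. The brightest probe set of this class belonged to Grin3a, a modulatory subunit, with 9.20 and 9.44 (0.24). Its dimmer probe sets, at 4.69 and 3.30 on the control array, differed by -0.014 and -0.11. Grin3b differed by 0.19, Grin2d by -0.16, Grin2a by 0.06 and Grin2b by 0.02. Grin2c had 4.49 on both arrays, equal to the last deposited digit. Grid1 of the delta family had 4.94 and 4.95. All 6 metabotropic receptor genes lay below 0, by a median of -0.19, where 52.4% of all genes lay below 0. Grm4 had 6.29 and 5.49 (-0.80), Grm5 differed by -0.28, Grm7 by -0.22 and Grm2 by -0.15, all read from the middle or last section. Grm8 and Grm3, read from the first section, differed by only -0.04 and -0.020. Of the metabotropic genes, Grm2 and Grm7 had another probe set, at -0.50 and -0.13.

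Calcium channel genes had 3 of 22 members 2-fold lower and 0 higher, each in another kind of subunit. Cacna1a, the pore of the P/Q-type channel that triggers transmitter release, had 9.04 in control and 6.38 in knockdown cells, 6.32-fold lower. Its 3 dimmer probe sets had 6.48 and 5.52 (-0.95), 5.92 and 5.79 (-0.13), and 5.84 and 5.64 (-0.20). The sign was thus shared and the size was not. Of the other 8 pore genes all were within 0.5, where 88.9% of all genes were. Cacna1b, the pore of the N-type channel, had 7.37 and 7.36, and the largest difference among them was that of Cacna1c, the L-type pore of heart and brain, at 0.23.

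Cacna2d2 encodes an alpha2delta subunit, which carries channels to the cell surface. Its probe sets had 6.81 and 5.47, 4.45 and 3.17, and 3.89 and 2.61. The differences were -1.34, -1.28 and -1.28 over 3 unlike intensities and 2 sections of the table, an SD of 0.03. Cacna2d1 differed by 0.04 and Cacna2d3 by -0.09, and Cacna2d4 had -0.43 on its brightest probe set with -0.02 and 0.13 on the others.

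Cacng2 encodes stargazin, which despite its name as a calcium channel gamma subunit brings AMPA receptors to synapses. It had 5.90 and 3.90 on one probe set and 5.74 and 3.72 on the other, differences of -1.996 and -2.022, read from the middle and the first section. Other gamma subunits were within 0.5, with Cacng7 at -0.42, Cacng3 at -0.27 and Cacng8 at 0.14. The 2 beta subunits, which sit on the inner face of the channel, were at -0.18 for Cacnb1 and 0.05 for Cacnb4.

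**Figure D3:**
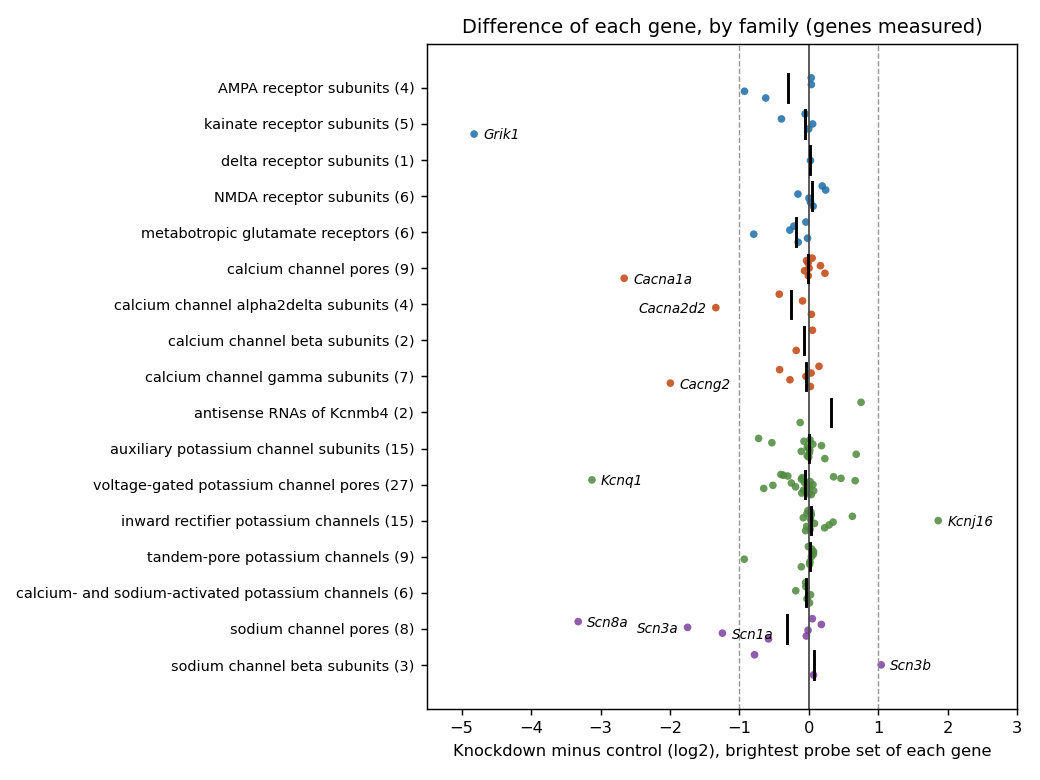
Difference between the arrays (knockdown minus control, log2) of each gene on its brightest probe set, by family, with the number of genes measured in brackets, black bars at family medians and dashed lines at 2-fold. Family medians lie between -0.31 and 0.31, and the named genes are the 10 past 2-fold.

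Sodium channels start the nerve impulse, and 5 of their 11 genes differed by less than 0.5, against 63 of 74 potassium channel genes and 88.9% of all genes. Of the sodium channel genes, 3 pore genes were 2-fold lower and 1 beta subunit gene 2-fold higher. The median absolute difference of this class was 0.58, where that of all members was 0.07. Members read from the first, middle and last section had medians of 0.04, 0.38 and 0.28, and sodium channel genes came from each section. How far the section accounts for the 0.58 was not tested. Scn8a, a pore of the axon initial segment and nodes, had 6.80 in control and 3.48 in knockdown cells, 10.0-fold lower. Its other 3 probe sets had 5.32 and 4.72 (-0.60), 4.45 and 4.46 (0.013), and 4.05 and 4.25 (0.20), so they had no common sign. Scn3a, a pore of the developing brain, had 9.63 and 7.89, 3.36-fold lower, and its dimmer probe set, far below in intensity, had 3.60 and 3.36 (-0.23). Scn1a, a pore best known from inhibitory interneurons, was lower on all of its probe sets, at 4.24 and 2.99, 3.64 and 2.37, and 3.22 and 2.14. These differences of -1.25, -1.27 and -1.07 have an SD of 0.11 and come from low intensities on both arrays.

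The remaining sodium channel pores were mostly alike. Scn10a, a pore of pain-sensing neurons, had 8.19 and 7.60 (-0.58) on its single usable probe set. Scn2a differed by -0.012, with 0.07 as the largest on its other probe sets, and Scn9a and Scn11a by 0.05 and -0.04. Scn7a, an atypical sodium channel that senses salt, differed by 0.18 on its brightest probe set. Another Scn7a probe set had 4.06 and 6.16, 4.28-fold higher, and this was the only member past 2-fold on a dimmer probe set alone. Among beta subunits, which anchor and tune the pores, Scn3b had 4.47 and 5.51 on one probe set and 4.18 and 5.46 on the other. It was higher on both, by 1.04 and 1.28, from the middle and the first section. Scn4b had 5.40 and 4.62 (-0.78) and Scn2b 4.98 and 5.05 (0.07).

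Potassium channel genes made up 76 of the 131 members, and of 74 measured 1 was 2-fold lower and 1 higher. Inward rectifiers set the resting potential, and 10 of their 15 genes were within 0.1, where 57.8% of all genes were. Kcnj16 had 6.40 in control and 8.27 in knockdown cells, 3.64-fold higher. Its other probe set had 5.47 and 5.24 (-0.23). The knockdown value of the brighter probe set, to the last digit, recurs as the control value 2 rows below, and with both rows left out the gene stood at -0.23. Kcnj11, the pore of the ATP-sensitive channel and the brightest reading among all members, had 9.90 and 10.12 (0.23), with 0.11 on its other probe set. Kcnj4 had 5.57 and 6.19 (0.63).

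Voltage-gated potassium pores end the impulse, and of 27 genes measured 1, Kcnq1, was past 2-fold, where 4.04% of all genes were. Kcnq1, a slowly activating pore of heart and epithelia, had 5.76 and 2.64, 8.72-fold lower, on its single probe set. Kcne1, the subunit that slows Kcnq1, had 5.01 and 5.69 (0.68). Kcnd1, an A-type pore, had the brightest probe set of the family with 9.64 and 9.45 (-0.19), and its other probe sets differed by 0.25 and -0.41. Kcnh3 had 7.54 and 7.47, and its dimmer probe sets were within 0.1. The next largest differences were those of Kcnh8 (0.67), Kcnc2 (-0.65), Kcnf1 (-0.52) and Kcnq5 (0.46). Of the 27, 14 were within 0.1, where 57.8% of all genes were.

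Tandem-pore potassium channels carry the leak current, and 7 of 9 genes were within 0.1, where 57.8% of all genes were. Kcnk1 had 9.15 and 9.04, Kcnk5 8.39 and 8.46, and Kcnk6 7.66 and 7.70, so 3 of the 12 brightest readings among all members were of this family and were alike on both arrays. Kcnk2, a stretch-activated channel, was the exception with 4.62 and 3.69 (-0.93), just short of 2-fold on its single probe set. Calcium- and sodium-activated channels all lay within 0.2, with Kcnma1, the large-conductance pore, at 6.79 on both arrays and Kcnn4 at -0.19. Auxiliary potassium subunits had 12 of 15 within 0.5, where 88.9% of all genes were. Kcnip4, a calcium-binding partner of A-type channels, had 8.99 and 8.46 (-0.53), with 0.03 and -0.02 on its dimmer probe sets, and Kcnmb4, a partner of the large-conductance channel, had 5.55 and 4.83 (-0.72). Of the 2 non-coding antisense RNAs of Kcnmb4 that the rule also took in, Kcnmb4os2 had 4.12 and 4.87 (0.75), in the opposite direction, and Kcnmb4os1 differed by -0.13.

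Around the 2-fold limit the values had no wide gap in either direction. Just inside lay Scn1a (-1.25), Cacna2d2 (-1.34) and Scn3a (-1.75), and just outside Kcnk2 (-0.93), Gria2 (-0.93) and Grm4 (-0.80). On the higher side the members just inside were Scn3b (1.04) and Kcnj16 (1.86), and those just outside Kcnmb4os2 (0.75), Kcne1 (0.68) and Kcnh8 (0.67).

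Other genes of synapses and channels were listed by role, as scaffolds, transporters, inhibitory receptors and channel partners, though with earlier results of these data known, so their counts support nothing by themselves. Of 63 listed, 49 were measured, and 6 (12.2%) were 2-fold lower and 0 higher, against the 2.91% and 1.13% of all genes. Dpp6, a partner of A-type potassium channels, had 6.21 and 3.16 (-3.05) and -1.68 on its other probe set. Rims1, a scaffold of the presynaptic active zone, had 6.42 and 3.40 (-3.02) and -2.88 on its other one. Gabra2, a subunit of the GABA receptor, had 5.46 and 2.53 (-2.92) and -1.11 on its other one. All 3 were thus lower on both of their probe sets.

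Glra2, a glycine receptor subunit, had 4.19 and 2.95 (-1.24), and Rimbp2, which ties calcium channels to the active zone, had 6.16 and 4.98 (-1.18), each on 1 usable probe set. Fgf12, a binding partner of sodium channels, had 8.31 and 7.11 (-1.20), with -0.80 and -0.013 on dimmer probe sets. All 6 were read from the middle or last section, where 6.09% and 5.58% of all genes were 2-fold lower. All 30 neighbours read from the first section were within 0.5 on their brightest probe sets. Of the neighbours' dimmer probe sets from the first section, those beyond 0.5 were a Gabra2 one (-1.11) and a Homer1 one (-0.996). The rest of these were within 0.5. Ank3, at 0.06 on its brightest probe set, from the first section, had 7.52 and 5.34 (-2.18) on a dimmer one from the last. Over the 49 genes the median difference was 0.012 and 31 were within 0.1, where 57.8% of all genes were. Those within 0.1 included the scaffolds Dlg1, Dlg2 and Dlg3 and the vesicular glutamate transporters Slc17a6 and Slc17a7.

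**Figure D4:**
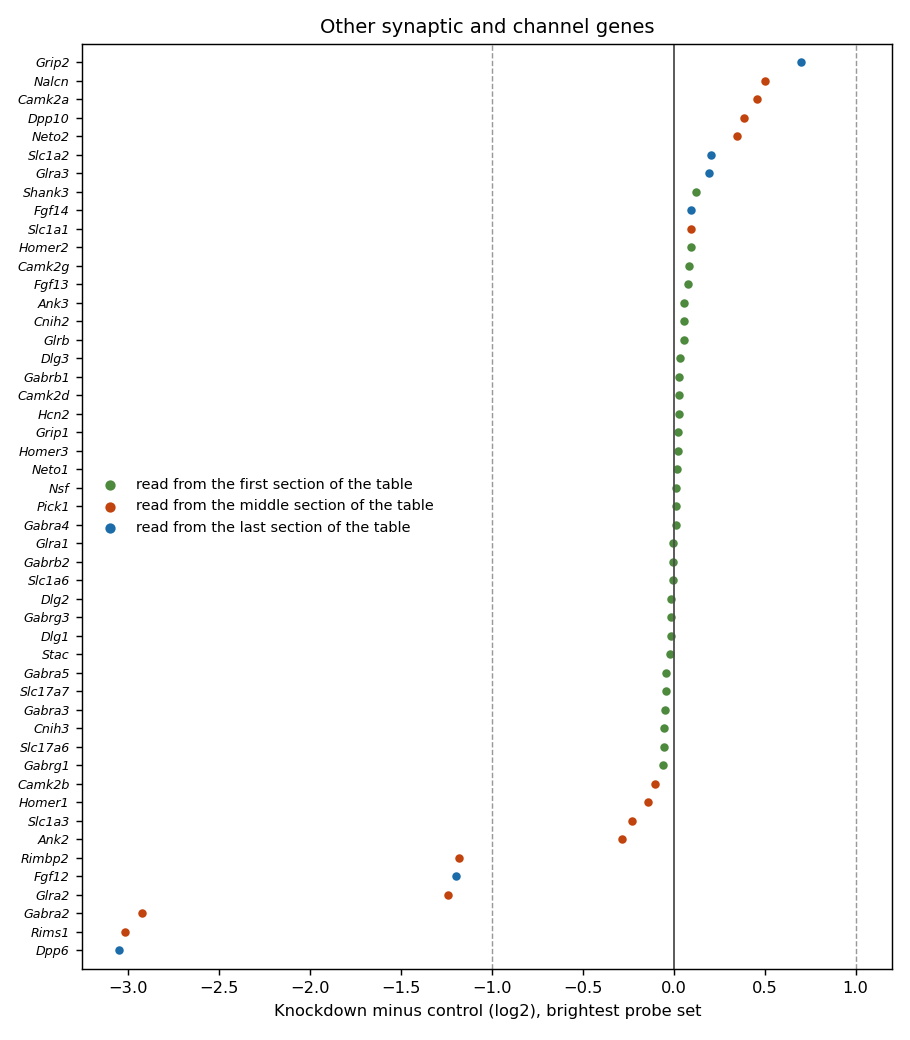
Difference between the arrays (knockdown minus control, log2) of 49 other synaptic and channel genes on their brightest probe sets, ordered by value and coloured by the section of the deposited table; dashed lines mark 2-fold. The 6 genes beyond the left dashed line were read from the middle or last section.

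Rest, the repressor of neuronal genes, had 11.07 on both arrays. Of the 9 genes of Rest and its partner complexes, 0 were past 2-fold on the brightest probe set, where 4.04% of all genes were. Rcor2 was at 0.20, Rcor1 at -0.20, Kdm1a at 0.04 and Hdac1 at -0.59, the largest. Sin3a, a scaffold of these complexes, had 9.95 and 9.91 on its brightest probe set but 5.37 and 3.39 (-1.97) on the other, which lies in the first section.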

How the data were processed

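Gene expression was measured on 1 Affymetrix array of control-knockdown and 1 of H2A.B-knockdown ES cells. The authors computed the deposited log2 intensities with RMA, a version of which is not stated, per the submitters' processing notes; the log2 scale was read from the range of 0.801 to 14.5 in the control column. Aligners do not apply, and depth has no meaning for arrays: their number limits the precision. In the knockdown column 616 values rising in steps of 1 between rows 2054 and 4710, and 2 values above 20, were left out, as were 1455 control values identical to a value up to 20 rows above. None of the first 2 kinds and 9 of the last fell on members.

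Probe sets naming 1 gene in the platform annotation were used, with all 131 members matched by gene ID to RefSeq (GRCm38.p6). A gene had the value of its brightest usable probe set. With 1 array per group no test was made, and a fixed rule of 2-fold was used. Lists of other genes were counted beside all genes. Named are members past 2-fold on any probe set, the 12 brightest, the largest and the brightest of each family, those nearest the limit, and neighbours past 2-fold or of largest difference; others serve as context and were chosen after their values were seen. Members and lists were chosen with earlier results of these data known. Promoters were found for 97 of 131 members (74.0%, under the 80% needed), so no comparison of CpG content over the members was made. The procedure was tested on simulated data with planted differences. Alternatives changed the probe set rule, the level filter, the centring (median, lowess), the size rule (1.5-fold), the handling of repeats and the section used; requiring every probe set to pass was added after seeing the data. Python 3.11.15 with pandas 2.3.3, statsmodels 0.14.6 and matplotlib 3.10.9 was used.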

Additional observations from a re-analysis of the deposited data

How the results depend on the processing

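The counts of 8 lower (6.20%) and 2 higher members (1.55%) were recomputed under each alternative, with the share of all genes under the same setting. Lower members numbered 5 with the median over probe sets (3.88%, all genes 2.76%), 15 with a 1.5-fold limit (11.6%, 6.24%) and 4 where every usable probe set had to pass (3.10%, 2.25%). From 1 section alone they numbered 5 in the first (5.88%, 1.54%), 2 in the middle (4.00%, 4.79%) and 4 in the last (7.41%, 4.56%). Higher members numbered 6 with a 1.5-fold limit (4.65%, 2.98%), 1 where every probe set had to pass (0.775%, 1.01%), and 1 with both members of repeated pairs left out (0.781%, 1.13%), where Kcnj16 turned to -0.23. By section they numbered 1 in the first (1.18%, 0.331%), 3 in the middle (6.0%, 2.00%) and 0 in the last (0%, 1.69%).

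At or above the median level 3 lower (15.0%, all genes 1.28%) and 1 higher (5.0%, 0.676%) of 20 members were left. At or above the 75th percentile 0 and 0 of 4 were left, where 0.41% and 0.072% of all genes were lower and higher. The filter takes the mean of both arrays, so Grik1 and Cacna1a passed it only through the control value and Kcnj16 only through the knockdown value, and these counts support nothing. The median difference of -0.012 was -0.07 and 0.058 under these filters, -0.0088, -0.058 and -0.025 in the first, middle and last section, -0.0067 with median centring, and between -0.017 and -0.011 otherwise. The 20 of 129 members above the median level became 8 of 85, 11 of 50 and 12 of 54 in the first, middle and last section. In each section the bound was the median of the genes read there. This count was not recomputed under the filters, which fix it. Median and lowess centring, probe sets without a suffix and keeping the repeats changed no count by over 1.5 times, but without suffixed probe sets Grik1 went from -4.82 to -0.66, below 2-fold. The sections and filters also hold fewer members; beyond that the cause was not tested.

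No paired analysis was possible because each group had 1 array, and leaving out a replicate would leave a group empty. Signal over background was not measured. Of the 8 lower members all but Cacna1a and Scn3a had knockdown values below 5.59, the knockdown array's median over all usable probe sets. All but Scn3a were below 6.72, its median over genes.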
